A study of Mus musculus with 20 samples.

Results

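The 8 genes described here, *Cdkn1a*, *Ccng1*, *Gtse1*, *Psrc1*, *Plk2*, *Plk3*, *Zmat3* and *Sesn1*, are targets of p53 with roles in arrest of the cell cycle. They were chosen by name, with their response to a MAT2A inhibitor (MAT2Ai) in these libraries already known, so the comparisons of MAT2Ai with placebo are a description. Counts of members past a threshold in those comparisons are printed beside the share of all genes past it, and nothing is read from them. All 8 were found among the 43430 genes counted in kidney, and all 8 were among the 16152 that passed the filter on low counts and were tested.

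The libraries were bulk poly(A) RNA-Seq of renal cortex from male C3H/HeJ mice, 5 in each of 4 groups. SP (Sweet Pee) mice are homozygous for a missense mutation of *Slc5a2*, which encodes SGLT2, the glucose transporter of the proximal tubule; the mutation is germline and so not limited to the kidney. WT mice carry the unmutated gene. All mice were 10 weeks old when a high-fat diet (HFD) began, ate it for 8 weeks and stayed on it through a further 8 weeks of i.p. injections, 3 per week. The injections held MAT2Ai, the E form of 4-(2-chloro-6-fluorostyryl)-N-methylaniline, at 10 mg/kg body weight in the SP MAT2Ai and WT MAT2Ai groups and DMSO in the SP placebo and WT placebo groups, so that the HFD was common to all 4 groups. The labels number the replicates without stating that each is a separate mouse, and p values therefore measure the spread between these libraries.

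MAT2A makes S-adenosylmethionine, the methyl donor of the cell, from methionine. p53 is a transcription factor held low by the ubiquitin ligase MDM2; when p53 is stabilised by DNA damage or other stress it binds paired sites in its target genes and raises their RNA. The best known of these targets is *Cdkn1a*, whose product p21 blocks cyclin-dependent kinases and halts the cell cycle, and p21 is also induced in tubule cells after kidney injury.

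Gene counts per library ranged from 53296824 to 79339949. Proximal tubule markers (8 genes, among them *Lrp2* and *Slc34a1*) summed to between 7458 and 12657 CPM (gene counts scaled to library size) in every library. *Mat2a*, the target of the inhibitor, whose RNA is not a measure of its activity, was at 387 ± 62.8 CPM in SP MAT2Ai and 363 ± 76.0 CPM in SP placebo libraries, and 463 ± 62.6 CPM in WT MAT2Ai and 358 ± 56.4 CPM in WT placebo libraries (SD, n = 5 each). The mutated gene *Slc5a2* was at 43.5 to 85.9 CPM in SP MAT2Ai libraries and 40.2 to 282 CPM in SP placebo libraries, against 229 to 415 CPM in WT MAT2Ai and 371 to 518 CPM in WT placebo libraries. SP placebo 1 and SP placebo 2, at 241 and 282 CPM, lay within the range of WT MAT2Ai, apart from the other 8 libraries labelled SP (40.2 to 85.9 CPM). Only WT MAT2Ai 2, at 229 CPM, set the low end of that range, and every other WT library was higher, at 325 to 518 CPM. WT MAT2Ai 2 stood apart on the first principal component (89.7, against −22.8 to 21.8 in the other 19) and held 1214 CPM of *Havcr1* and 676 CPM of *Lcn2*, both markers of tubular injury. Values without 1 or more of these libraries stand beside many of the results.

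The promoters of the members are shown first because a p53 site can be read directly from the letters. RefSeq windows of 300 bases (GRCm38.p6, 250 before the start of transcription and 50 from it) matched 7 of the 8 members, all but *Zmat3*, in 11 windows. Of 32841 windows of this length over all genes, 107 (0.326%) held a p53 full site, taken as 2 abutting 10-base p53 half-sites with at most 2 mismatches outside their fixed C and G. A single exact p53 half-site was in 8.36% of windows. *Cdkn1a*, *Ccng1* and *Gtse1* each held 1 full site, with 1 mismatch each. The site of *Cdkn1a* (chr17:29090928-29090947) began at −51 from the upstream start, which lies 2790 bases before the second annotated start. The site of *Ccng1* (chr11:40755462-40755481) began at −195, and that of *Gtse1* (chr15:85859945-85859964) at −1 from the second of its starts. *Psrc1* held no p53 half-site in either window but held TTCGAA, a form of the cell cycle homology region (CHR), which was in 1.56% of windows, and a CCAAT box, which was in 37.4%. In the 4 windows that follow, read 5′ to 3′ on the strand of the gene, capitals mark p53 full sites and half-sites, CCAAT or its complement ATTGG, and TTCGAA. Their positions are chr17:29090729-29091028 (+), chr11:40755237-40755536 (−), chr15:85859696-85859995 (+) and chr3:108383554-108383853 (+).
Cdkn1a, upstream start: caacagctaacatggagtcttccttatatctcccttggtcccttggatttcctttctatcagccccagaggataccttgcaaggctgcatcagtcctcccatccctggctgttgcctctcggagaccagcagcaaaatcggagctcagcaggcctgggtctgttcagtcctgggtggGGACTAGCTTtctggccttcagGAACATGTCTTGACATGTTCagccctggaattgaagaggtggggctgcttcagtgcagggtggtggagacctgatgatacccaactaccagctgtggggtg
Ccng1: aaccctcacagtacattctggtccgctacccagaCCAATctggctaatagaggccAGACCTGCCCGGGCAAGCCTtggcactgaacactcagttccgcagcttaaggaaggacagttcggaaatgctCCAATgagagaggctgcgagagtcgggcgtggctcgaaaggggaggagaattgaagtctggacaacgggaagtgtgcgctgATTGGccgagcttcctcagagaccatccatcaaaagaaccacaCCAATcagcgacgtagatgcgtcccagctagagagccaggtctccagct
Gtse1, second start: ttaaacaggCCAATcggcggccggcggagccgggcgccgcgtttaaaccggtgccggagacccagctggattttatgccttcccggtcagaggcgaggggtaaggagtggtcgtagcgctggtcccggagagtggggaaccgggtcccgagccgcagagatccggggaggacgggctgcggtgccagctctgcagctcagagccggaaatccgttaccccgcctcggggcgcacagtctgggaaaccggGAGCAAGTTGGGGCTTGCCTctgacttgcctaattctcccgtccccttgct
Psrc1, first start: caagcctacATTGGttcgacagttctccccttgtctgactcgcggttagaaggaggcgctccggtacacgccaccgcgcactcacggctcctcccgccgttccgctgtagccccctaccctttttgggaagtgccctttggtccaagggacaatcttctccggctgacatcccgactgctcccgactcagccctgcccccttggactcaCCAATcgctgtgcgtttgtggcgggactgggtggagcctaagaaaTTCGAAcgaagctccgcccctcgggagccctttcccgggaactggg
The windows of *Plk2* and *Plk3* and the second window of *Cdkn1a* held no match on either strand to any motif searched, which were the p53 half-site, the CCAAT box, the CArG box, the TATA box (TATAAA, in 13.6% of windows) and both CHR forms (the other is TTTGAA, in 17.9%). The first window of *Gtse1* held 3 CCAAT boxes, and the second window of *Sesn1* held a p53 half-site at −173. These matches describe letters, not binding.

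In kidneys given MAT2Ai, 7 of the 8 members were higher than in placebo kidneys of the same genotype in both SP and WT mice, and *Sesn1* was level in SP (log2 fold change −0.03 ± 0.13 SE). The largest differences were those of *Cdkn1a*, *Gtse1* and *Psrc1*, and *Ccng1*, the most abundant member per length of transcript, differed by less. The median log2 fold change of the 8 members was 0.65 in SP and 1.07 in WT, against 0.0019 and 0.012 over all 16152 genes. The value was above 0 for 7 of 8 members in SP, where 50.6% of all genes were above 0, and for 8 of 8 in WT, where 52.6% were. In SP kidneys 1 member, *Psrc1*, was past an adjusted p of 0.05 by the edgeR quasi-likelihood test, where 0.0186% of all genes were. In WT kidneys 0 members and 0% of all genes were past it, with 6 members and 2540 genes at an unadjusted p under 0.05 and 5 members past the threshold by DESeq2, as were 1.39% of the genes it tested, and 0 by limma-voom. Averaged over both genotypes, 4 members (*Cdkn1a*, *Ccng1*, *Gtse1* and *Psrc1*) were past it, all higher, beside 0.223% of all genes (0.186% higher). The choice of the members used this contrast.

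**Figure D1:**
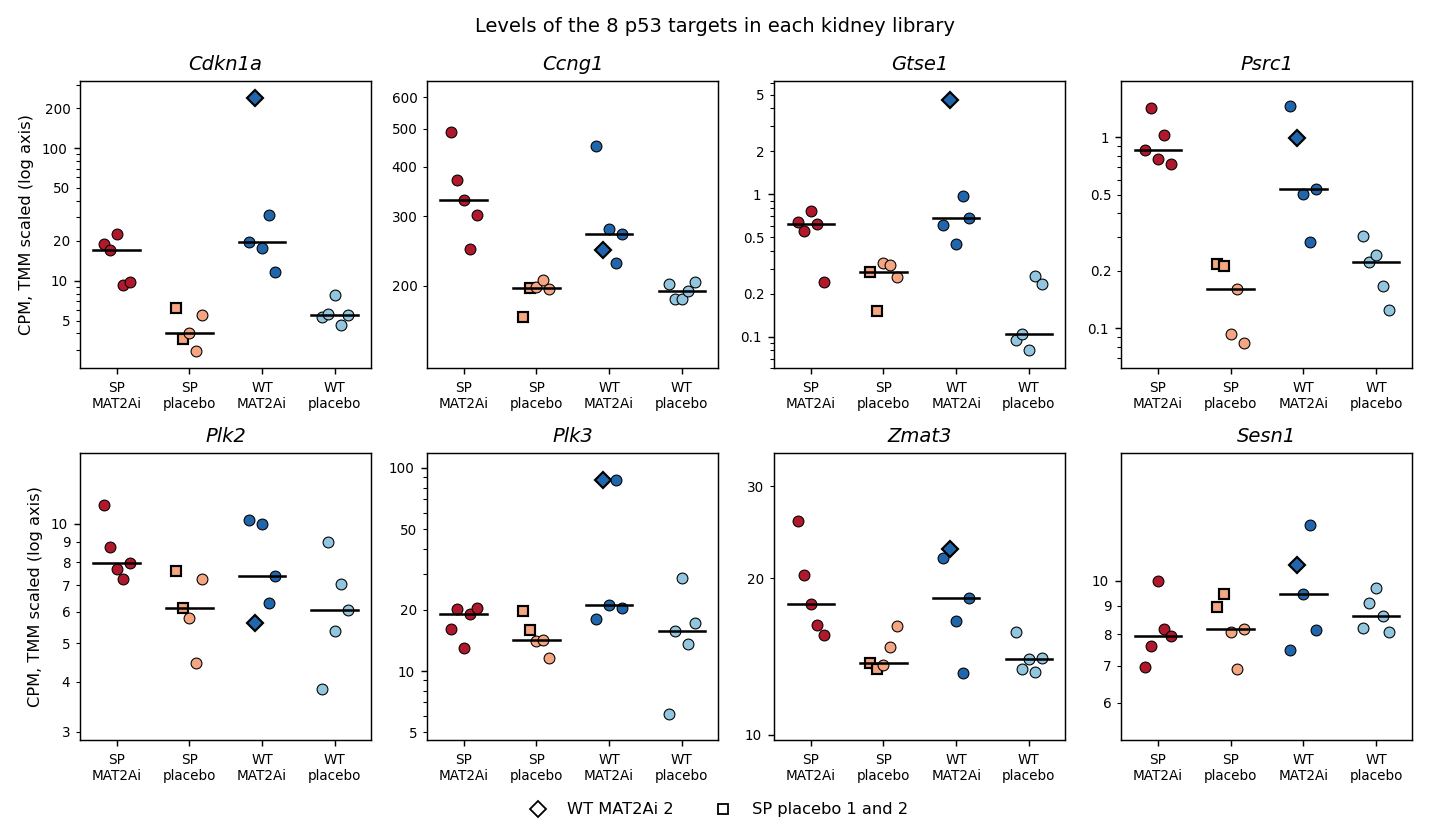
CPM of each of the 8 members (TMM scaled, log axes) in the 20 libraries by group; 1 point is 1 library, the bar is the group median, the diamond is WT MAT2Ai 2 and squares are SP placebo 1 and 2. All 10 MAT2Ai libraries lie above all 10 placebo libraries for Cdkn1a (9.20 to 237 against 2.94 to 7.84 CPM) and Ccng1 (228 to 489 against 167 to 206 CPM), and the groups of Sesn1 overlap throughout. The share of all genes set apart in this way was not counted.

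*Cdkn1a* (chr17:29090976-29100727, + strand, mm10) encodes p21; it overlaps a gene model on the opposite strand, AC167363.2, that was not among the genes counted. It had 18.9, 17.1, 22.5, 9.20 and 9.78 CPM in the SP MAT2Ai libraries, against 6.23, 3.61, 4.06, 2.94 and 5.49 CPM in the SP placebo libraries. In WT MAT2Ai libraries it had 19.5, 237, 17.7, 31.1 and 11.7 CPM, against 5.33, 5.62, 7.84, 4.64 and 5.52 CPM in WT placebo libraries. Every MAT2Ai library was above every placebo library of its own genotype, and 1 library, WT MAT2Ai 2, was far above all others. The log2 fold change was 1.79 ± 0.63 (SE) in SP and 3.45 ± 0.65 in WT. For each gene the fit used 1 estimate of spread over all 20 libraries, so an SE in SP also holds the spread of the WT groups. The SD of log2 CPM of *Cdkn1a* was 0.58 in SP MAT2Ai and 0.44 in SP placebo libraries. It was 1.71 in WT MAT2Ai and 0.28 in WT placebo libraries. Without WT MAT2Ai 2 the WT value was 1.78 ± 0.29, close to that of SP.

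*Ccng1* (chr11:40748552-40755311, − strand) encodes cyclin G1, which recruits a phosphatase to MDM2. It had 489, 370, 330, 248 and 302 CPM in SP MAT2Ai libraries, against 167, 197, 198, 206 and 196 CPM in SP placebo libraries. WT MAT2Ai libraries held 452, 246, 279, 228 and 270 CPM, against 202, 185, 186, 194 and 204 CPM in WT placebo libraries. The ranges did not meet in either genotype, and the placebo groups were tight (coefficient of variation 7.89% in SP and 4.68% in WT). The log2 fold change was 0.85 ± 0.16 in SP and 0.60 ± 0.16 in WT. WT MAT2Ai 2, the extreme library for *Cdkn1a*, held only 246 CPM of *Ccng1*, the fourth highest of its 5 replicates, and the highest *Ccng1* levels were in SP MAT2Ai 1 and WT MAT2Ai 1.

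*Gtse1* and *Psrc1* encode microtubule proteins. *Gtse1* (chr15:85859745-85876573, + strand), which in human cells takes p53 out of the nucleus in G2 and is best known from dividing cells, was scarce, with 5 to 297 counts per library. It had 0.634, 0.555, 0.767, 0.617 and 0.243 CPM in SP MAT2Ai libraries, against 0.286, 0.152, 0.328, 0.321 and 0.264 CPM in SP placebo libraries. In the WT kidneys given MAT2Ai it had 0.610, 4.61, 0.446, 0.977 and 0.678 CPM, against 0.0948, 0.104, 0.0808, 0.266 and 0.234 CPM in WT placebo libraries. The WT groups did not overlap, and in SP 4 of 5 MAT2Ai libraries were above every placebo library. The log2 fold change was 1.05 ± 0.55 in SP and 3.21 ± 0.59 in WT, and 2.09 ± 0.39 in WT without WT MAT2Ai 2, the library with 297 counts.

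*Psrc1* (chr3:108383839-108388231, + strand) encodes DDA3, a protein of the mitotic spindle first found as a p53 target in mouse cells. It had 6 to 103 counts per library. Its levels were 0.861, 1.42, 0.767, 1.03 and 0.730 CPM in SP MAT2Ai libraries, against 0.218, 0.213, 0.0937, 0.160 and 0.0834 CPM in SP placebo libraries. The WT MAT2Ai libraries had 1.46, 0.994, 0.504, 0.284 and 0.539 CPM, against 0.303, 0.223, 0.242, 0.166 and 0.125 CPM in WT placebo libraries. The SP groups did not overlap, and 4 of 5 WT MAT2Ai libraries were above every WT placebo library. The log2 fold change was 2.63 ± 0.41 in SP, the largest of any member there, and 1.84 ± 0.40 in WT (1.72 ± 0.42 without WT MAT2Ai 2). The mean ratio was 6.25 in SP and 3.57 in WT.

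*Plk2* and *Plk3* are polo-like kinases that, unlike *Plk1*, respond to stress and to serum as early genes. *Plk2* (chr13:110395046-110400844, + strand) had 11.1, 8.73, 7.67, 7.25 and 7.94 CPM in SP MAT2Ai libraries, against 7.62, 6.12, 5.78, 4.47 and 7.27 CPM in SP placebo libraries. Its levels in WT MAT2Ai libraries were 10.2, 5.62, 9.95, 6.32 and 7.38 CPM, against 3.85, 8.97, 5.38, 7.03 and 6.06 CPM in WT placebo libraries. The groups overlapped in both genotypes, with log2 fold changes of 0.45 ± 0.21 in SP and 0.33 ± 0.21 in WT.

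*Plk3* (chr4:117128655-117133963, − strand) overlaps exons of *Tctex1d4* on the opposite strand, which had 5 counts in all 20 libraries together. *Plk3* had 16.1, 20.3, 12.9, 19.1 and 20.4 CPM in SP MAT2Ai libraries, against 19.7, 16, 14, 14.3 and 11.6 CPM in SP placebo libraries. For WT MAT2Ai libraries the values were 18.1, 87.7, 21.0, 87.5 and 20.4 CPM, against 6.14, 15.8, 28.6, 13.6 and 17.1 CPM in WT placebo libraries. WT MAT2Ai 2 and 4 were high and the other 3 WT MAT2Ai libraries lay inside the placebo range. The log2 fold change was 0.23 ± 0.42 in SP and 1.53 ± 0.42 in WT. Without WT MAT2Ai 2, 3 and 4 the WT value was 0.24. That setting took out both high libraries and left 2, so the lower value follows from which libraries were left out. The same WT MAT2Ai 2 and 4 had the highest summed level of 14 immediate early genes in their group (747 and 491 CPM, against 266 to 284 CPM in the other 3). WT placebo libraries held 183 to 317 CPM of these genes, whose part in the *Plk3* values was not tested.

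*Zmat3* and *Sesn1* encode an RNA-binding zinc finger protein that alters splicing and RNA stability, and a sestrin that restrains mTORC1. *Zmat3* (chr3:32334792-32366014, − strand) had 25.8, 20.3, 17.9, 16.3 and 15.5 CPM in SP MAT2Ai libraries, against 13.7, 13.4, 13.6, 14.7 and 16.2 CPM in SP placebo libraries. Among WT MAT2Ai libraries the levels were 21.9, 22.7, 16.5, 13.2 and 18.3 CPM, against 15.8, 13.4, 13.9, 13.2 and 14 CPM in WT placebo libraries. In each genotype 4 of 5 MAT2Ai libraries were above every placebo library, and the log2 fold changes were alike at 0.42 ± 0.14 in SP and 0.40 ± 0.14 in WT. *Sesn1* (chr10:41809935-41908424, + strand) had 6.97, 7.62, 10.0, 8.18 and 7.94 CPM in SP MAT2Ai libraries, against 8.95, 9.47, 8.08, 6.92 and 8.16 CPM in SP placebo libraries. WT MAT2Ai libraries gave 7.49, 10.7, 9.46, 12.6 and 8.14 CPM, against 8.21, 9.10, 9.68, 8.61 and 8.06 CPM in WT placebo libraries. *Sesn1* had the smallest differences of the 8 members, with overlapping groups and a log2 fold change of 0.15 ± 0.13 in WT. Without WT MAT2Ai 2, 3 and 4 the WT value of *Sesn1* was −0.17 ± 0.13. Those libraries held the 3 highest *Sesn1* levels of their group, and only 2 libraries remained (7.49 and 8.14 CPM). The change of sign follows from which libraries were left out, and nothing is read from it.

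**Figure D2:**
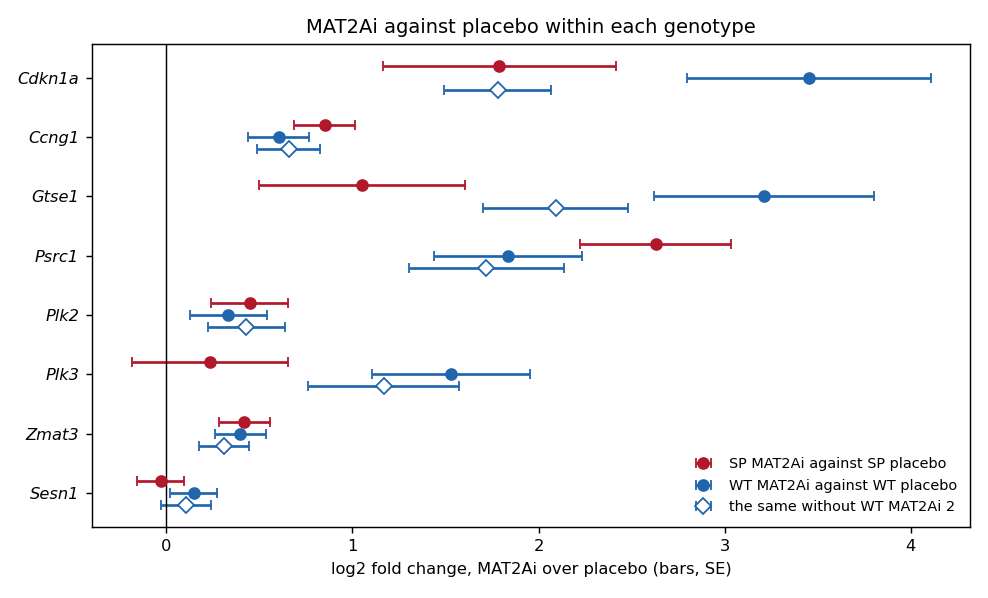
Log2 fold change of each member, MAT2Ai over placebo, with bars of 1 SE, in SP (red circles), in WT (blue circles) and in WT without WT MAT2Ai 2 (open diamonds). Leaving out that library moved the WT value of Cdkn1a to 1.78, that of Gtse1 to 2.09 and that of Plk3 to 1.17.

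Ranked over the 20 libraries, the 10 highest levels were all in MAT2Ai libraries for *Cdkn1a* and *Ccng1*, 9 of 10 for *Gtse1* and *Psrc1*, 8 of 10 for *Plk3* and *Zmat3*, 7 of 10 for *Plk2* and 4 of 10 for *Sesn1*. The share of all genes ranked in this way was not counted, and nothing is read from these ranks. Ranges did not overlap for 3 of 8 members in SP (*Cdkn1a*, *Ccng1* and *Psrc1*), where 1.06% of all genes had every MAT2Ai library above every placebo library and 0.52% had every one below. In WT 3 of 8 did not overlap (*Cdkn1a*, *Ccng1* and *Gtse1*), where 1.52% of all genes lay above in this way and 0.662% below. The members peaked in different libraries. WT MAT2Ai 2 was the highest library for *Cdkn1a*, *Gtse1* and *Plk3*, SP MAT2Ai 1 for *Ccng1*, *Plk2* and *Zmat3*, WT MAT2Ai 1 for *Psrc1* and WT MAT2Ai 4 for *Sesn1*.

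The counts of members past the threshold moved with single libraries. Leaving out 1 library at a time, 0 to 3 members were past the threshold in SP, 0 to 3 in WT and 3 to 5 over both genotypes. In SP, *Psrc1* was no longer past it without SP MAT2Ai 2 or any 1 of the 5 SP placebo libraries, and 0 members were without SP placebo 1 and 2 together, when the log2 fold change of *Psrc1* was 3.08. The count in SP was 2 to 3 without SP MAT2Ai 4, WT MAT2Ai 1 or WT MAT2Ai 2, and the count in WT was 1 to 3 without WT MAT2Ai 1, 3, 4 or 5. Over both genotypes *Gtse1* was no longer past it without SP MAT2Ai 2 or 3, any 1 SP placebo library, or WT placebo 1, 2 or 3, and without WT MAT2Ai 4 *Zmat3* was past it as well. There the count was 1 without SP placebo 1 and 2 together and 3 when WT MAT2Ai 2 was left out as well.

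The summed level of tubular injury markers was highest in WT MAT2Ai 2, the library where *Cdkn1a*, *Gtse1* and *Plk3* were also highest. The 12 markers summed to 488 to 697 CPM in SP MAT2Ai libraries and 445 to 626 CPM in SP placebo libraries, and to 529 to 8063 CPM in WT MAT2Ai libraries and 503 to 590 CPM in WT placebo libraries. The top value was WT MAT2Ai 2, which also held 237 CPM of *Cdkn1a* and 4.61 CPM of *Gtse1*. *Ccng1* (246 CPM), *Psrc1* (0.994 CPM) and *Zmat3* (22.7 CPM) of that library lay within the range of the other MAT2Ai libraries. The next injury sum, 965 CPM in WT MAT2Ai 3, stood beside 17.7 CPM of *Cdkn1a* and 0.446 CPM of *Gtse1*, within the range of the other MAT2Ai libraries. WT MAT2Ai 4, with an injury sum of 654 CPM, was the second highest library for both genes (31.1 and 0.977 CPM). *Cdkn1a* in SP MAT2Ai libraries was above all SP placebo libraries while their injury sums overlapped. Of the 11 injury markers tested, 0 passed the edgeR quasi-likelihood test in SP (0 at an unadjusted p under 0.05) or in WT (9 unadjusted). Of all 16152 genes, 956 were at an unadjusted p under 0.05 in SP and 2540 in WT. In WT the median log2 fold change of the injury markers was 2.03, and 0.88 without WT MAT2Ai 2. The part of these markers in the values of *Cdkn1a* and *Gtse1* was not tested.

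**Figure D3:**
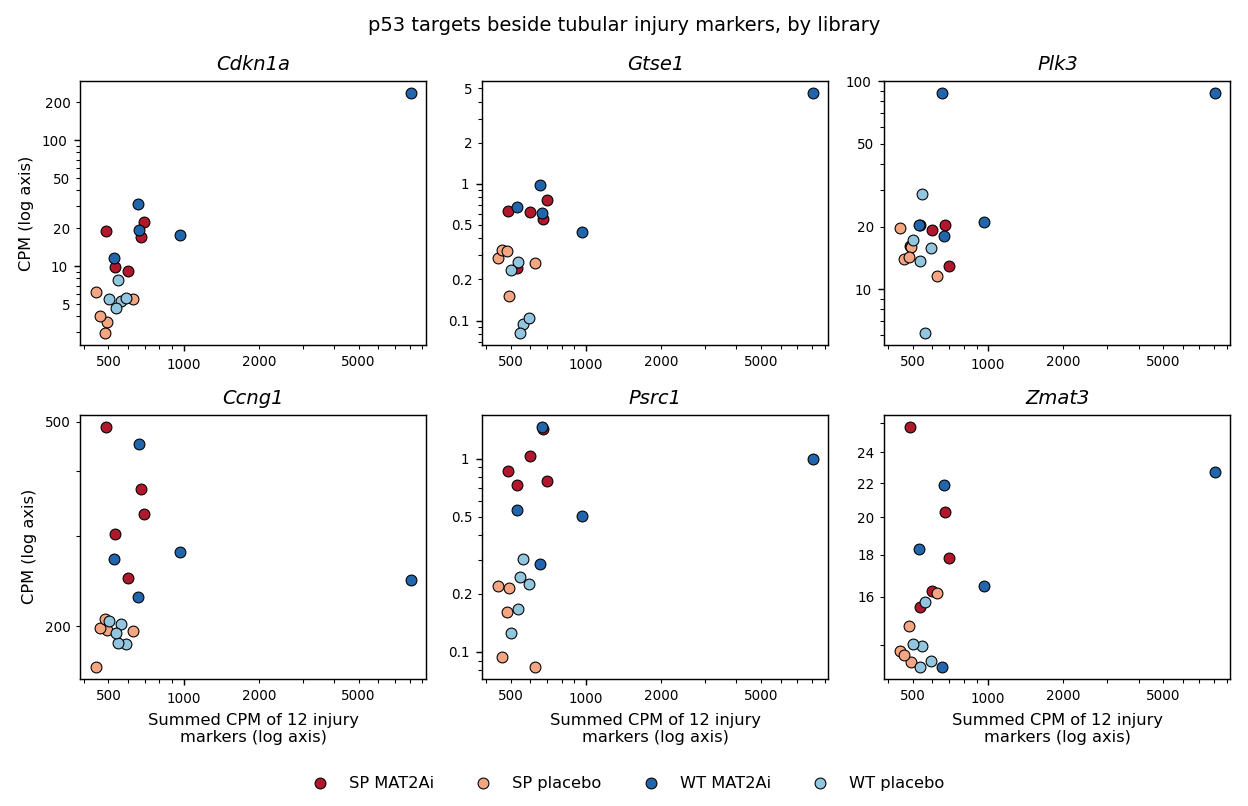
CPM of 6 members (y, log axis) against the summed CPM of 12 tubular injury markers (x, log axis), 1 point per library, coloured by group. WT MAT2Ai 2 is alone at 8063 CPM of injury markers and tops the panels of Cdkn1a, Gtse1 and Plk3, whereas in the panels of Ccng1, Psrc1 and Zmat3 another MAT2Ai library is higher.

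Markers of other cells also differed in level between MAT2Ai and placebo groups, with 0 called by edgeR in SP or in WT. In bulk RNA a lower level can be fewer cells of a type or less RNA per cell, and these cannot be told apart. Podocyte, collecting duct, and thick ascending limb and distal tubule markers, not described further, likewise had 0 called. Endothelial markers (6 genes) summed to 80.6 to 118 CPM in SP MAT2Ai libraries and 104 to 173 CPM in SP placebo libraries, with all 6 lower and 0 called. Macrophage markers (6 genes) summed to 25.6 to 53.3 CPM in SP MAT2Ai libraries and 42.3 to 78.3 CPM in SP placebo libraries, with all 6 lower and 0 called. Lymphocyte markers summed to 2.97 to 6.24 CPM in SP MAT2Ai libraries, below every SP placebo library (7.0 to 21.4 CPM). SP placebo 5 alone set the top value, and the others held 7.0 to 7.59 CPM. All 5 lymphocyte markers tested were lower in SP and 0 were called. Of all single genes 0.52% lay wholly below in SP, and the share of sums doing so was not counted. None of these markers was at 0 throughout a group. Erythroid markers (5 genes) summed to 227 to 656 CPM in SP MAT2Ai and 313 to 1013 CPM in SP placebo libraries, and to 235 to 626 CPM in WT MAT2Ai and 311 to 702 CPM in WT placebo libraries, with all 5 lower in both genotypes (median log2 fold change −0.82 in SP and −0.40 in WT) and 0 called. In WT all 5 lymphocyte markers were lower (median −0.40) and all 5 fibroblast and smooth muscle markers higher (median 0.34), with 0 called and overlapping sums. In SP, 4 of the 5 fibroblast and smooth muscle markers were lower (median −0.20), with 0 called. They summed to 36.9 to 64.7 CPM in SP MAT2Ai and 51.0 to 59.3 CPM in SP placebo libraries. Of the WT endothelial markers 4 of 6 were lower, though 5 of 6 were higher without WT MAT2Ai 2, and of the WT macrophage markers 4 of 6 were higher. All 8 proximal tubule markers were lower in WT MAT2Ai than in WT placebo libraries (median −0.21, 3 at an unadjusted p under 0.05, 0 called). Their sum was 7458 to 11361 CPM against 10705 to 12251 CPM, the lowest being WT MAT2Ai 2, and without that library 7 of 8 were lower (median −0.13). The part of these cell markers in the members' values was not tested. Immediate early genes summed to 226 to 601 CPM in SP MAT2Ai libraries and 196 to 264 CPM in SP placebo libraries, with all 14 higher, 10 at an unadjusted p under 0.05 and 0 called, where 956 of the 16152 genes were at an unadjusted p under 0.05. In WT 9 of the 14 immediate early genes were higher and 5 lower, with 0 called. Their sums overlapped, at 266 to 747 CPM in WT MAT2Ai and 183 to 317 CPM in WT placebo libraries.

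The rest of the p53 pathway was read from 30 other genes. They too were chosen with results of this contrast known, and nothing is read from their counts. Over both genotypes 6 of the 30 were past the threshold, all higher under MAT2Ai, beside 0.223% of all genes, and 25 of 30 were above 0 (52.2% of all genes). They were *Eda2r*, a receptor of the TNF family (log2 fold change 2.23), *Gdf15*, a secreted stress hormone (1.88, and 1.19 without WT MAT2Ai 2), *Phlda3*, which competes with AKT for membrane lipids (1.47), *Tnfrsf10b*, the TRAIL death receptor (0.90), *Aen*, a nuclease of apoptosis (0.62), and *Mdm2*, the ligase of p53 (0.39). Of these, 2 (*Eda2r* and *Phlda3*) were called without SP placebo 1 and 2, and *Gdf15* was likewise no longer past the threshold without any 1 WT placebo or SP placebo library and without SP MAT2Ai 1, 2, 3 or 5. In WT MAT2Ai 2 *Gdf15* was at 85.0 CPM, against 8.35 to 11.6 CPM in the other 4 libraries of its group. RNA of p53 itself was alike in the groups, with *Trp53* at 21.7 ± 1.88 CPM in SP MAT2Ai and 20.6 ± 1.27 CPM in SP placebo libraries, and 19.7 ± 2.76 CPM in WT MAT2Ai and 19.3 ± 1.07 CPM in WT placebo libraries (SD, n = 5 each). In SP and in WT alone 0 of 30 were called by edgeR, with 11 in SP and 16 in WT at an unadjusted p under 0.05, beside 956 of all genes in SP and 2540 in WT. The unadjusted count in WT was 9 without WT MAT2Ai 2, with 0 called. In SP 4 of the 30 (*Eda2r*, *Gdf15*, *Mdm2* and *Phlda3*) were called by edgeR without that library. Leaving out 1 library at a time, 0 to 13 of all genes were called in SP. DESeq2 called 5 of them in SP, with 0.168% of its genes, and 7 in WT, with 1.39%.

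Over both genotypes 2372 of all 16152 genes were at an unadjusted p under 0.05 by edgeR, to be set beside the unadjusted counts in this paragraph. Of 11 paralogues of the members tested, 0 were called by edgeR over both genotypes (2 at an unadjusted p under 0.05) and the median log2 fold change was 0.10. The closest to the threshold were *Sesn2*, a stress-induced sestrin that is also among the 30 (0.44 ± 0.20), *Plk5* (0.53 ± 0.25), *Zmat2* (0.07 ± 0.04) and *Plk4*, the kinase of centriole duplication (0.17 ± 0.10). *Cdkn1b*, which encodes the CDK inhibitor p27, was at −0.02 ± 0.04. Of the genes of proliferation 0 of 33 tested were called (4 at an unadjusted p under 0.05), with a median of 0.05. Their sum was 55.0 to 64.3 CPM in SP MAT2Ai and 58.7 to 67.5 CPM in SP placebo libraries, and 57.5 to 71.1 CPM in WT MAT2Ai and 51.3 to 80.2 CPM in WT placebo libraries. The 4 with the smallest p were *Cdca8* (0.50 ± 0.15), *Mcm6* (−0.29 ± 0.09), *Kif23* (1.01 ± 0.33) and *Nusap1* (0.60 ± 0.27), of which *Cdca8*, *Kif23* and *Nusap1* act in mitosis and *Mcm6* in DNA replication.

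Levels can be compared between members only per length of transcript. In WT placebo kidneys FPKM (CPM per kilobase of exon) were 55.3 ± 2.59 for *Ccng1*, 6.42 ± 3.20 for *Plk3*, 2.19 ± 0.167 for *Sesn1*, 1.63 ± 0.340 for *Cdkn1a*, 1.39 ± 0.425 for *Plk2* and 1.23 ± 0.0898 for *Zmat3* (SD, n = 5). *Psrc1* (0.0630 ± 0.0205 FPKM) and *Gtse1* (0.0569 ± 0.0318 FPKM) were far lower. The ranges of neighbours in this order overlapped except between *Ccng1* and *Plk3* and between *Zmat3* and *Psrc1*. In SP MAT2Ai kidneys *Cdkn1a* was at 4.36 ± 1.64 FPKM, above *Sesn1* (2.05 ± 0.284 FPKM).

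The question whether the SP genotype alone changed these genes was addressed by SP placebo against WT placebo, a comparison that the choice of members did not use. The edgeR quasi-likelihood test called 0 of 8 members and 0% of all genes, with 0 members and 606 genes at an unadjusted p under 0.05, and DESeq2 (0.0435% of its genes) and limma-voom (0%) also called 0 members, as did edgeR without SP placebo 1 and 2. The ranges overlapped for all 8 (0.656% of all genes lay wholly above and 0.539% wholly below), and 2 of 8 members were above 0, where 50% of all genes were. Log2 fold changes ran between −0.45 ± 0.42 for *Psrc1* and 0.78 ± 0.60 for *Gtse1*, with an adjusted p close to 1 for each member (0.99997). For *Ccng1* the value was −0.01 with an unadjusted 95% interval of −0.35 to 0.33, for *Zmat3* 0.03 (−0.26 to 0.31) and for *Cdkn1a* −0.37 (−1.68 to 0.93). The intervals of the 2 scarce genes were wide, at −1.34 to 0.44 for *Psrc1* and −0.48 to 2.04 for *Gtse1*.

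Under MAT2Ai, SP kidneys were compared with WT kidneys. *Cdkn1a*, *Plk3* and *Gtse1* were lower in SP MAT2Ai than in WT MAT2Ai on average, but 0 of 8 members were past the threshold, where 1.84% of all genes were (0.644% higher), and 0 of 8 had ranges that did not overlap (1.68% of all genes lay wholly below and 1.71% wholly above). The log2 fold change was −2.03 ± 0.61 for *Cdkn1a* (edgeR quasi-likelihood adjusted p = 0.0699, 2 of 5 SP MAT2Ai libraries below all WT MAT2Ai libraries), −1.40 ± 0.42 for *Plk3* (adjusted p = 0.0707, 2 of 5) and −1.38 ± 0.53 for *Gtse1* (adjusted p = 0.137, 1 of 5). These 3 were the members at an unadjusted p under 0.05. DESeq2 called 2 of them, *Cdkn1a* (adjusted p = 0.0252) and *Plk3* (0.0297), beside 7.62% of the genes it tested, and limma-voom called 0, beside 0.669%. Without WT MAT2Ai 2 the value was −0.37 ± 0.28 for *Cdkn1a* (adjusted p = 0.526), −0.26 ± 0.36 for *Gtse1* (0.760) and −1.04 ± 0.40 for *Plk3* (0.173), whereas without WT MAT2Ai 1 (*Cdkn1a* −2.25, adjusted p = 0.0465 and *Plk3* −1.60, adjusted p = 0.0392) and without WT MAT2Ai 5 (*Cdkn1a* −2.30, adjusted p = 0.0326 and *Plk3* −1.59, adjusted p = 0.0386) both *Cdkn1a* and *Plk3* were called. Of the 11 injury markers, 3 were lower and past the threshold in the same comparison (*Lcn2* −5.90, *Krt20* −4.95 and *Sox9* −4.51). Without WT MAT2Ai 2 these were −1.59 for *Lcn2* (adjusted p = 0.173), −1.52 for *Krt20* (0.286) and −1.07 for *Sox9* (0.353), and their part in the members' values was not tested. Over all libraries the same comparison also called 3 of 6 macrophage and 2 of 5 fibroblast and smooth muscle markers, all lower. It called 1 of 8 proximal tubule markers, higher. The part of these markers in the members' values was not tested either. For the other 5 members the log2 fold change was 0.24 ± 0.16 for *Ccng1*, 0.34 ± 0.36 for *Psrc1*, 0.11 ± 0.21 for *Plk2*, 0.05 ± 0.14 for *Zmat3* and −0.25 ± 0.13 for *Sesn1*, with adjusted p from 0.259 to 0.872. In all, 4 of 8 members were above 0, where 46.6% of all genes were.

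**Figure D4:**
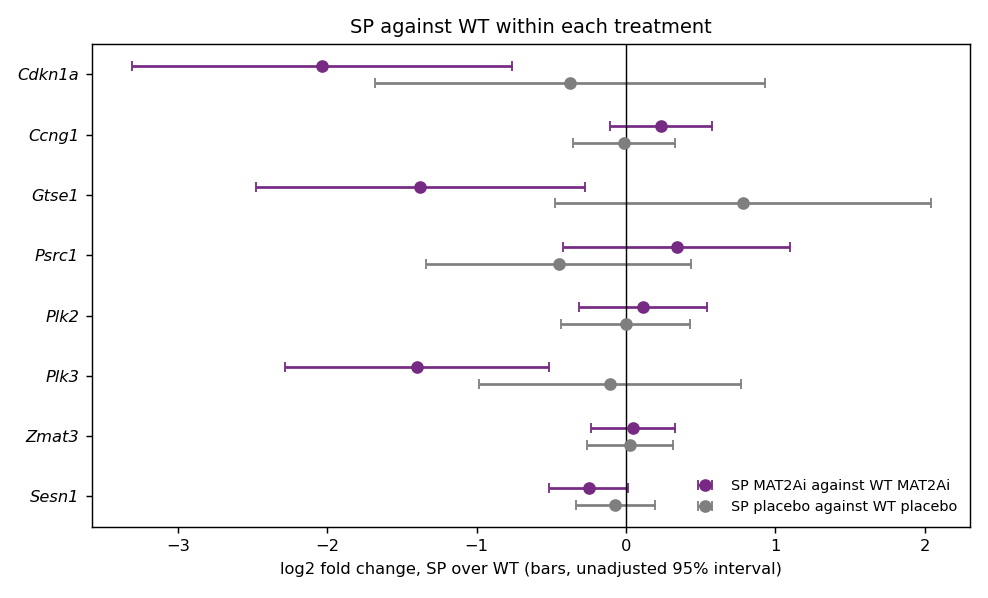
Log2 fold change of each member, SP over WT, under MAT2Ai (purple) and under placebo (grey), with unadjusted 95% intervals. All 8 intervals under placebo include 0, and under MAT2Ai those of Cdkn1a, Gtse1 and Plk3 lie below 0 while their adjusted p values are 0.0699, 0.137 and 0.0707.

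Averaged over both treatments, SP against WT also called 0 of 8 members (1.33% of all genes, 0.607% higher), with *Cdkn1a* at −1.20 ± 0.43 (adjusted p = 0.134) and *Plk3* at −0.75 ± 0.30 (0.166) as the members at an unadjusted p under 0.05. Without WT MAT2Ai 2 the value of *Cdkn1a* was −0.37 ± 0.20 (adjusted p = 0.317), and leaving out 1 library at a time that of *Plk3* lay between −0.86 and −0.58. DESeq2 (6.02% of its genes) and limma-voom (0.978%) called 0 members. Values were above 0 for 3 of 8 members and for 47.2% of all genes. Without SP placebo 1 and 2 and WT MAT2Ai 2 the count of members called was likewise 0. Over all libraries, 2 of 6 macrophage, 1 of 5 fibroblast and smooth muscle and 1 of 5 erythroid markers were called lower by edgeR. Of the 8 proximal tubule markers, 1 was called higher. The part of these markers in the members' values was not tested.

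Whether MAT2Ai acted on the members differently in SP and WT kidneys was asked by the interaction of genotype and treatment. The edgeR quasi-likelihood test called 0 of 8 members and 0% of all genes (2 members and 903 genes at an unadjusted p under 0.05), DESeq2 (0.00621% of its genes) and limma-voom (0%) called 0 members, and the smallest adjusted p of any gene was 0.842. The interaction, as the log2 fold change in SP less that in WT, was −2.16 ± 0.80 for *Gtse1*, −1.66 ± 0.86 for *Cdkn1a* and −1.29 ± 0.59 for *Plk3*, each with an adjusted p of 0.842. It was 0.79 ± 0.56 for *Psrc1*, 0.25 ± 0.23 for *Ccng1*, 0.12 ± 0.29 for *Plk2*, 0.02 ± 0.19 for *Zmat3* and −0.18 ± 0.18 for *Sesn1*, so that 4 of 8 members were above 0, where 47.2% of all genes were. The unadjusted 95% interval was −0.24 to 0.73 for *Ccng1*, −0.38 to 0.42 for *Zmat3* and −3.47 to 0.14 for *Cdkn1a*. Without WT MAT2Ai 2 the value for *Cdkn1a* was 0.0044 ± 0.39 and that for *Gtse1* was −1.04 ± 0.52.

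Genes whose levels followed each member most closely were sought among 11841 named genes by Pearson r of log2 CPM over the 20 libraries, which share the 4 groups and their treatment difference, so r is descriptive. *Ccng1* was most like *Exoc4* (r = 0.956), *Ly6e* (0.937) and *Aaas* (0.926), and r stayed between 0.880 and 0.947 without the 2 libraries farthest from the median of *Ccng1*. *Psrc1* was most like *Mdm2* (0.880), *Aaas* (0.856) and *Ly6e* (0.842), and *Zmat3* was most like *Aen* (0.896), *Ly6e* (0.891) and *Tfe3* (0.885). *Ly6e* was thus among the 3 nearest genes of 3 members. *Cdkn1a* was most like *Snhg5* (0.905) and *Cenpt* (0.898), which were at 0.729 and 0.725 without WT MAT2Ai 2 and 4. *Gtse1* was most like *Jade2* (0.886), *Smc5* (0.865) and *Lsg1* (0.863), and *Plk3* was most like *Ddit4* (0.904), *Tob2* (0.894) and *Cebpd* (0.891), which dropped to between 0.514 and 0.642 without WT MAT2Ai 2 and 4. *Sesn1* was most like *Pmp22* (0.913), *Mmd* (0.871) and *Tsc22d3* (0.869), and *Plk2* was like no gene above 0.720 (*Rnase4*). Spearman rho for the pairs named ran between 0.648 and 0.905.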

How the data were processed

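Poly(A) RNA of renal cortex was sequenced by the authors from directional libraries, aligned to mm10 with STAR and counted per gene with htseq-count and Ensembl annotation. The deposited values were raw counts, not scaled, and the strand setting of the counting is not given in the sources used here. Lines without a gene name entered neither library sizes nor fits. No feature was 3.87% to 5.49%, and ambiguous 0.702% to 0.794%, of no feature, ambiguous and gene counts together. Alignments that were not unique, left out of that total, were 48.3 to 63.6 per 100 gene counts. Symbols, coordinates and exon lengths were taken from GENCODE M21 (42462 of 43430 IDs).

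Counts were filtered with filterByExpr and scaled by TMM, and 16152 genes were tested with the quasi-likelihood test of edgeR 4.0.16 (R 4.3.3) over all 20 libraries with 1 coefficient per group. P values were adjusted over all genes (Benjamini-Hochberg, threshold 0.05); "called" means past it. SE is the log2 fold change divided by the square root of F. CPM are TMM scaled, and FPKM divide them by exon length. DESeq2 1.42.0 and limma 3.58.1 (voom) and the other settings named in the closing section were alternatives, 31 in all, of which 1 was added after the data were seen. The others, among them the sets of libraries left out together, were planned with earlier results of these data known. Scripts were tested on simulated data for SP MAT2Ai against SP placebo and for SP placebo against WT placebo. False calls were 13.5% and 13.7% of the DESeq2 calls at the 0.05 threshold. They were 3.38% and 5.13% of the edgeR calls and 4.64% and 2.67% of the limma-voom calls. Other comparisons were not simulated. Promoter sequences are those of RefSeq.

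All 8 members were named in every comparison. From each other list described, genes past the threshold were named, and otherwise up to 4 with the smallest p. The lists of cell type markers were given as counts and sums, and their genes were not named by this rule. *Cdkn1b*, *Havcr1*, *Lcn2*, *Trp53* and *Tctex1d4* were named after their values were seen. For each member up to 3 genes most alike in log2 CPM (prior count 2) were named; 1 such gene is not reported here. The members and lists were chosen with earlier results of these data known. Part of the labels mentions single nuclei, although the files hold bulk counts. Replicate numbers did not pair the libraries.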

Additional observations from a re-analysis of the deposited data

Results flagged for a closer look

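Of 32 groups of 5 libraries (8 members in 4 groups), 4 had a highest or lowest library set apart from the other 4 by Dixon's ratio; chance flags about 1 in 20 such groups. *Cdkn1a* in WT MAT2Ai 2 was at 237 CPM, against 11.7 to 31.1 CPM in the other 4 libraries of the group. *Gtse1* in the same library was at 4.61 CPM, against 0.446 to 0.977 CPM. *Ccng1* in WT MAT2Ai 1 was at 452 CPM, against 228 to 279 CPM in the other 4, and *Ccng1* in SP placebo 1 was at 167 CPM, the lowest of its group, against 196 to 206 CPM. WT MAT2Ai 1 also held the highest *Psrc1* level of all 20 libraries (1.46 CPM). SP placebo 1 is 1 of the 2 libraries labelled SP whose *Slc5a2* lay above that of the lowest WT library, WT MAT2Ai 2. Both were below every other WT library.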

How the results depend on the processing

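Each result was recomputed under 31 alternatives, and the cause of a change was not tested unless the alternative's own construction (fewer libraries, another estimate of spread) shows it. The inhibitor fold changes of *Cdkn1a*, *Ccng1*, *Gtse1*, *Psrc1*, *Plk2*, *Plk3* and *Zmat3* stayed above 0 throughout. With library totals only, *Zmat3* turned to −0.033 (SP MAT2Ai against WT MAT2Ai), −0.0091 (SP against WT over both treatments) and −0.047 (interaction), and 481 genes were called for SP MAT2Ai against WT MAT2Ai. DESeq2 called 27 genes and 2 members in SP (MAT2Ai against placebo), 215 genes and 5 members in WT, 192 genes over both genotypes, 7 for SP placebo against WT placebo, 1203 genes and 2 members for SP MAT2Ai against WT MAT2Ai, 894 for SP against WT over both treatments and 1 for the interaction. By limma-voom 108 genes were called for SP MAT2Ai against WT MAT2Ai and 2 members over both genotypes; for SP placebo against WT placebo *Plk2* was at 0.013 and *Plk3* at 0.0092, and for SP against WT over both treatments *Gtse1* was at 0.0072 and *Psrc1* at 0.0079. With the compared groups only, 10 genes and 2 members were called in SP and 2 genes for SP MAT2Ai against WT MAT2Ai.

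The replicate numbers did not pair the libraries (mean correlation −0.016 over 30 same-numbered pairs, 4 of them over 0.1; 6 of 20 libraries were closest to their own number). With the number as a replicate block, 88 genes were called for SP MAT2Ai against WT MAT2Ai, 114 for SP against WT over both treatments and 3 members over both genotypes, and *Ccng1* was at 0.0023 for SP placebo against WT placebo.

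Without SP placebo 1 and 2, 0 genes and 0 members were called in SP, 4 genes and 1 member over both genotypes, 1 gene for SP placebo against WT placebo and 126 for SP MAT2Ai against WT MAT2Ai, *Ccng1* was at 0.038 for SP placebo against WT placebo and the interaction of *Zmat3* was −0.021. Without WT MAT2Ai 2, 3 and 4, which left 2 libraries in that group, 17 genes and 3 members were called in SP. In WT 63 genes and 2 members were called in that setting, and 88 genes over both genotypes. Genes called were 149 for SP MAT2Ai against WT MAT2Ai and 461 for SP against WT over both treatments. The libraries left out held the 3 highest *Sesn1* levels of their group and both high *Plk3* levels. SP MAT2Ai against WT MAT2Ai was then −0.055 for *Ccng1*, −0.042 for *Plk2*, −0.071 for *Zmat3*, 0.060 for *Sesn1* and −0.064 for *Psrc1*; SP against WT over both treatments was −0.033 for *Ccng1*, −0.023 for *Plk2*, 0.29 for *Gtse1* and −0.022 for *Zmat3*; and the interaction was −0.044 for *Ccng1*, −0.039 for *Plk2*, 0.36 for *Cdkn1a*, −0.097 for *Zmat3* and 0.13 for *Sesn1*. Without SP placebo 1 and 2 and WT MAT2Ai 2, an alternative chosen after seeing the data, 0 genes and 0 members were called in SP, 18 genes over both genotypes, 1 for SP placebo against WT placebo, 151 for SP MAT2Ai against WT MAT2Ai and 463 for SP against WT over both treatments. *Ccng1* was then at 0.038 for SP placebo against WT placebo, SP against WT over both treatments was −0.047 for *Plk2* and 0.34 for *Gtse1*, and the interaction of *Cdkn1a* was 0.12.

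Leaving out 1 library at a time, genes called ranged from 0 to 13 in SP, 0 to 27 in WT, 20 to 77 over both genotypes, 0 to 1 for SP placebo against WT placebo, 0 to 774 for SP MAT2Ai against WT MAT2Ai and 20 to 574 for SP against WT over both treatments. Members called ranged from 0 to 3 in SP, 0 to 3 in WT, 3 to 5 over both genotypes and 0 to 2 for SP MAT2Ai against WT MAT2Ai. Signs turned only in values that were not called. For SP placebo against WT placebo the range was −0.035 to 0.033 for *Ccng1*, −0.13 to 0.16 for *Plk2*, −0.31 to 0.20 for *Plk3* and −0.022 to 0.072 for *Zmat3*. For SP against WT over both treatments it was −0.41 to 0.26 for *Gtse1*, −0.010 to 0.14 for *Plk2*, −0.16 to 0.14 for *Psrc1* and −0.028 to 0.079 for *Zmat3*. For SP MAT2Ai against WT MAT2Ai it was −0.080 to 0.13 for *Zmat3*, and for the interaction −1.93 to 0.0044 for *Cdkn1a*, −0.043 to 0.25 for *Plk2* and −0.10 to 0.11 for *Zmat3*. *Gtse1* had as few as 5 counts in a library and *Psrc1* as few as 6.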
